A study of Mus musculus with 12 samples.

Results

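The 9 genes described here (Pdgfrb, Rgs5, Foxc1, Foxd1, Twist1, Prrx1, Lum, Dcn and Alx4) are genes used to recognise the mesenchyme of the meninges, the connective tissue sheets around the brain, and the pericytes on its capillaries. They were taken by name from the 26190 genes of the expression table. All 9 were among the 14454 genes tested, that is, genes with a mean of at least 16 counts in at least 1 group. The study dissected the telencephalon, the primordium of the cerebral cortex and basal ganglia, from wild-type C57BL/6 J mouse embryos and sequenced poly(A) RNA from 12 single embryos. There were 3 males and 3 females at embryonic day (E) 11.5 and 3 males and 3 females at E14.5, and no group carried a transgene or received a treatment. The question of the study was whether gene expression differs between the sexes at these ages, before the surge of sex hormones. By the study's table of embryos and mothers, the E11.5 embryos came from 3 litters, here A, B and C, with 1 male and 1 female of each, although its text gives a smaller number of litters at this age, and the table was followed here. The E14.5 embryos came from 2 litters, here D (replicates 1 and 2 of each sex) and E (replicate 3 of each sex), so that litter lies within age. Dissection differed between the ages as well. At E11.5 the eye primordium was taken off and the telencephalon was cut at its border with the diencephalon, whereas at E14.5 the skull tissue was removed and the whole brain was taken out before the telencephalon was dissected. A difference between the ages therefore cannot be told apart from a difference in the dissection or in how much of the covering tissue stayed on the brain. The library identifiers in the labels carried a different series number in each of the 4 groups, so anything that differed between these series cannot be told apart from age or sex. In addition, because these are bulk samples, fewer cells of a type and less RNA per cell cannot be told apart.

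Around the forebrain, the meninges form from mesenchyme that is mainly of neural crest origin and differentiates into fibroblast layers which lay down collagens and proteoglycans and signal to the cortex beneath. Pericytes sit in the basement membrane of growing capillaries. Endothelial cells secrete PDGF-B, which draws in pericytes through the receptor Pdgfrb. Within the 9 genes, Prrx1, Alx4 and Twist1 encode transcription factors of craniofacial mesenchyme, and Foxc1 and Foxd1 encode forkhead factors, of which Foxc1 is needed for the meninges to form. Lum (lumican) and Dcn (decorin) encode small leucine-rich proteoglycans that bind collagen fibrils. Rgs5 encodes a regulator of G-protein signalling and is a widely used pericyte marker. The genes were located on the mouse build GRCm38, and none of their exons overlaps an exon of another annotated gene. Lum and Dcn are neighbours on the plus strand of chromosome 10, with 47.3 kb between the end of Dcn and the start of Lum. Rgs5 and Prrx1 lie on chromosome 1, Foxc1 and Foxd1 on chromosome 13, Twist1 on chromosome 12 and Alx4 on chromosome 2.

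Promoter sequences of 300 bases, 250 before and 50 after the start site, were taken from RefSeq (GRCm38.p6) for 5 of the 9 genes. Pdgfrb was left out of this search, and Lum, Dcn and Alx4 had no entry under their symbols. The promoters of Rgs5, the gene with the largest rise between the ages, of Twist1, the transcription factor with the largest fall among those with a promoter entry, and of Foxd1, which differed between the sexes at E14.5, are shown 5′ to 3′ with CCAAT, or ATTGG where it is on the other strand, in capitals.
Rgs5, chr1:169655251-169655550, plus strand: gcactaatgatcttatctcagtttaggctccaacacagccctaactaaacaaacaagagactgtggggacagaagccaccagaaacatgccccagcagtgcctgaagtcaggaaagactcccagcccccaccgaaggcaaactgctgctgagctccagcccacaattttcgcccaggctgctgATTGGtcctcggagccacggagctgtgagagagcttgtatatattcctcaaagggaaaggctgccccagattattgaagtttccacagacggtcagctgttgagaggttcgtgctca
Twist1, chr12:33957421-33957720, plus strand: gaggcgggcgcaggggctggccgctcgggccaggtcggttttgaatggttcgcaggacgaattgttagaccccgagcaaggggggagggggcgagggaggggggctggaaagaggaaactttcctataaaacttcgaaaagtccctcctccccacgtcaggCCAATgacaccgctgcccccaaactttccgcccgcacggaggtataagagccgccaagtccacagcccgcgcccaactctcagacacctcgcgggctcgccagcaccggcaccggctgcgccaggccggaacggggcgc
Foxd1, chr13:98353995-98354294, plus strand: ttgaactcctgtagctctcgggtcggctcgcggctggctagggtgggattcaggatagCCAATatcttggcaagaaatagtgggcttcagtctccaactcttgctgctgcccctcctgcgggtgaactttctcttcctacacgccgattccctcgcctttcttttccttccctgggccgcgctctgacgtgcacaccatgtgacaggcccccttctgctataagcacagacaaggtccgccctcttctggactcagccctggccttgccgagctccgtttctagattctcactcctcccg
These promoters differ in base composition. GC content was 66.0% with 27 CpG dinucleotides in Twist1 and 67.3% with 32 in Foxc1, against 57.7% with 15 in Foxd1, 52.3% with 6 in Rgs5 and 47.7% with 6 in Prrx1. The median over all 32851 promoters was 52.7% with 7 CpG dinucleotides. The gene that rose is thus near the median, and the 4 that fell lie on both sides of it. CCAAT, searched on both strands, occurred in 4 of the 5 promoters, all but Prrx1, and in 37.4% of all promoters. TATAAA occurred in Twist1 alone of the 5 (13.6% of all promoters), 126 bases before the start, and it does not overlap the CCAAT match. The E box CANNTG, the motif class bound by basic helix-loop-helix factors such as Twist1, occurred once each in Rgs5 and Foxd1 and in none of Foxc1, Prrx1 and Twist1, against 72.3% of all promoters. These matches are a description of the letters only.

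Levels between genes were compared in FPKM, the authors' count of fragments scaled to transcript length and library size, which is a level per length. Library totals ranged from 17551763 to 28355361 counts, and every one of the 9 genes had at least 25 counts in every library. At E11.5 Lum was the most abundant by far, at 46.9 ± 3.84 FPKM (SD, n = 6), and Rgs5 the least, at 1.69 ± 0.609. Between them came Pdgfrb (8.62), Alx4 (7.01), Prrx1 (7.0), Foxc1 (6.69), Foxd1 (4.90), Dcn (4.20) and Twist1 (4.16), as means in FPKM. The libraries of Alx4, Prrx1 and Foxc1 overlapped in level, as did those of Foxd1, Dcn and Twist1, so the order within each trio lies inside their spread. Lum and Rgs5 stood clear of all the others, whereas Pdgfrb, although above every library of Alx4 and Prrx1, overlapped with Foxc1, which reached 8.22 FPKM against a lowest Pdgfrb of 7.97 FPKM. By E14.5 the order was different. Dcn had the highest mean, at 19.4 ± 5.09 FPKM, followed by Rgs5 at 16.3 ± 2.595 and Lum at 15.98 ± 3.10, and the libraries of these 3 genes overlapped. Below them, and apart from them, came Pdgfrb at 5.31 ± 0.507, then Prrx1 (2.97) with Foxc1 (2.89), which overlapped, Foxd1 (1.71) with Alx4 (1.47), which overlapped, and Twist1 at 0.896 ± 0.163. Twist1 was measured thinly at this age. It had 25 to 45 counts per library at E14.5, and the lowest count of 25 carries an exact Poisson 95% interval of 16.2 to 36.9 counts, which covers counting error only.

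**Figure D1:**
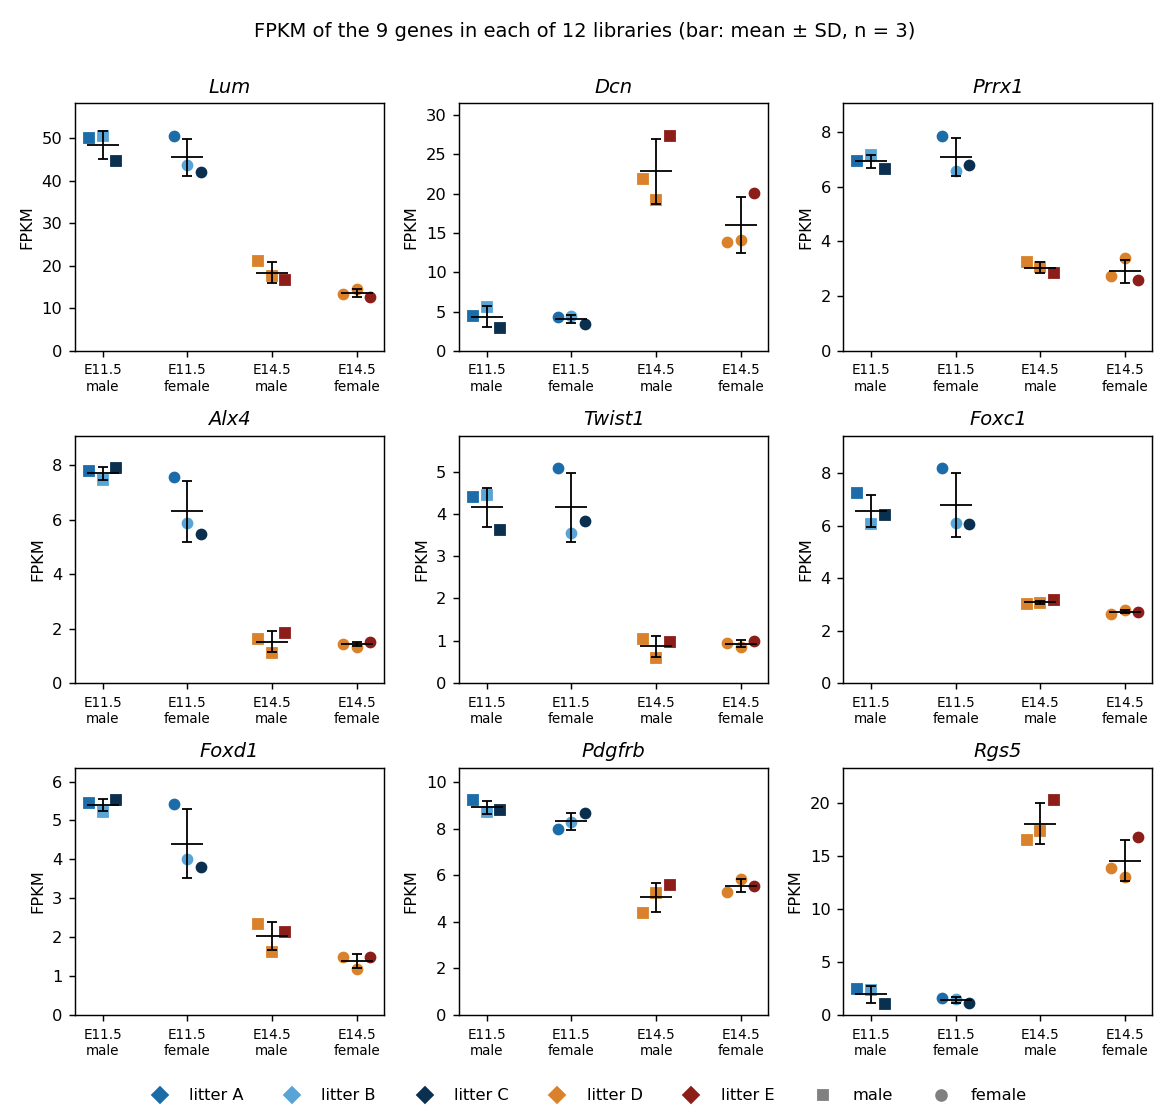
FPKM of each of the 9 genes (vertical axis, from 0) in the 12 libraries, grouped by age and sex, with colours for litters and squares for males. Horizontal bars are group means with SD (n = 3). Dcn and Rgs5 are higher in all E14.5 libraries than in any E11.5 library, and the other 7 genes are lower.

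Between E11.5 and E14.5, 7 of the 9 genes fell and 2 rose (edgeR quasi-likelihood test, Benjamini-Hochberg adjusted p under 0.05 over all 14454 genes, with a change of more than 0.5 on the log2 scale). The 5 transcription factors, the receptor Pdgfrb and the proteoglycan Lum fell, and Dcn and Rgs5 rose. As background, 19.0% of all genes tested were called lower and 24.4% higher at E14.5. The age groups did not overlap in FPKM for any of the 9 genes, but the share of all genes without overlap was not computed. The median log2 fold change was −1.18 for the 9 genes and −0.01 for all genes tested. Correcting for GC content and transcript length lowered the median of all genes to −0.13 and changed the genome-wide split from 3521 higher and 2744 lower to 2854 higher and 3642 lower, and the 9 genes kept their calls and directions under it.

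Prrx1, a paired-type homeodomain factor of mesenchyme in the head and limb, measured 6.95, 7.16 and 6.66 FPKM in the E11.5 males and 7.86, 6.58 and 6.79 FPKM in the E11.5 females. At E14.5 it measured 3.25, 3.05 and 2.83 FPKM in males and 2.75, 3.37 and 2.57 FPKM in females. The highest E14.5 library was below the lowest E11.5 library, and the log2 fold change was −1.18 (SE 0.07, edgeR adjusted p = 4.78e-10). Alx4, an aristaless-like homeodomain factor of the developing skull, measured 7.78, 7.45 and 7.91 FPKM in E11.5 males and 7.59, 5.86 and 5.48 FPKM in E11.5 females. Its E14.5 values were 1.61, 1.10 and 1.84 FPKM in males and 1.44, 1.33 and 1.51 FPKM in females. This was the largest fall of the 9 in the fitted estimates, at −2.20 on the log2 scale (SE 0.11, edgeR adjusted p = 1.047e-09) or 4.59-fold lower. For Twist1, the basic helix-loop-helix factor of cranial mesenchyme, the E11.5 values were 4.41, 4.45 and 3.62 FPKM in males and 5.09, 3.56 and 3.83 FPKM in females. Its E14.5 values were 1.03, 0.587 and 0.970 FPKM in males and 0.953, 0.844 and 0.992 FPKM in females. Twist1 fell by 2.17 on the log2 scale (SE 0.14, edgeR adjusted p = 1.574e-09), a fall that differed from that of Alx4 by less than either SE.

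The forkhead genes had smaller falls than Alx4 and Twist1, with 95% intervals that did not overlap theirs. Foxc1 measured 7.25, 6.07 and 6.41 FPKM in E11.5 males and 8.22, 6.12 and 6.06 FPKM in E11.5 females. At E14.5 it lay in a narrow band, with 3.003, 3.06 and 3.15 FPKM in males and 2.65, 2.77 and 2.72 FPKM in females, and its log2 fold change was −1.16 (SE 0.08, edgeR adjusted p = 3.184e-09). Foxd1, which marks stromal and pericyte progenitors in several organs of the mouse, measured 5.45, 5.22 and 5.53 FPKM in E11.5 males. In the E11.5 females it measured 5.43, 4.0 and 3.79 FPKM, so that only the litter A female was in the range of the males. Its E14.5 values were 2.34, 1.62 and 2.14 FPKM in males and 1.49, 1.19 and 1.5 FPKM in females, and the log2 fold change was −1.49 (SE 0.11, edgeR adjusted p = 7.488e-09).

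The proteoglycans moved in opposite directions. Lum measured 49.98, 50.6 and 44.6 FPKM in E11.5 males and 50.5, 43.8 and 42.1 FPKM in E11.5 females. Its E14.5 levels were 21.1, 17.5 and 16.6 FPKM in males and 13.4, 14.6 and 12.7 FPKM in females, a fall of the fitted values by 1.52 on the log2 scale (SE 0.06, edgeR adjusted p = 4.189e-11). Dcn, by contrast, measured 4.46, 5.58 and 2.96 FPKM in E11.5 males and 4.32, 4.43 and 3.47 FPKM in E11.5 females. At E14.5 it measured 21.9, 19.2 and 27.4 FPKM in males and 13.8, 14.1 and 20.1 FPKM in females. Every E14.5 library thus exceeded the highest E11.5 library, and Dcn was 4.72-fold higher (log2 fold change 2.24, SE 0.16, edgeR adjusted p = 1.65e-07). Within a library, the FPKM ratio of Dcn to Lum was between 0.0664 and 0.110 at E11.5 (median 0.0874) and between 0.967 and 1.65 at E14.5 (median 1.07). The 2 libraries of litter E had the highest ratios.

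The pericyte-associated genes also parted. Pdgfrb measured 9.24, 8.74 and 8.81 FPKM in E11.5 males and 7.97, 8.28 and 8.69 FPKM in E11.5 females. The gene, on chromosome 18, measured 4.37, 5.25 and 5.57 FPKM in E14.5 males and 5.27, 5.83 and 5.56 FPKM in E14.5 females. This was the smallest change of the 9, with a log2 fold change of −0.65 (SE 0.06, edgeR adjusted p = 5.898e-08). Rgs5 measured 2.48, 2.36 and 1.04 FPKM in E11.5 males and 1.64, 1.47 and 1.13 FPKM in E11.5 females. Its E14.5 levels were 16.5, 17.4 and 20.3 FPKM in males and 13.9, 13.1 and 16.8 FPKM in females, which made it 10.1-fold higher (log2 fold change 3.34, SE 0.18, edgeR adjusted p = 1.761e-08). The ratio of Rgs5 to Pdgfrb in FPKM was between 0.119 and 0.270 in the E11.5 libraries (median 0.191) and between 2.24 and 3.78 in the E14.5 libraries (median 3.16). Pdgfrb is also expressed by meningeal fibroblasts, so its bulk level is a sum over cell types.

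**Figure D2:**
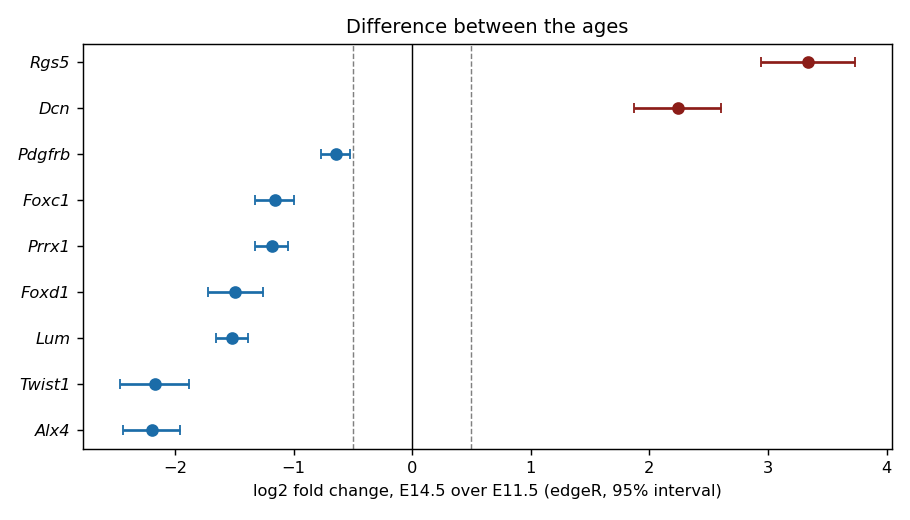
Fitted log2 fold change of E14.5 over E11.5 for each gene (horizontal axis) with its 95% interval from edgeR, and dashed lines at the minimum of 0.5 in each direction. Rgs5 (3.34) and Dcn (2.24) lie to the right of 0, and Alx4 (−2.20) and Twist1 (−2.17) lie farthest to the left.

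**Figure D3:**
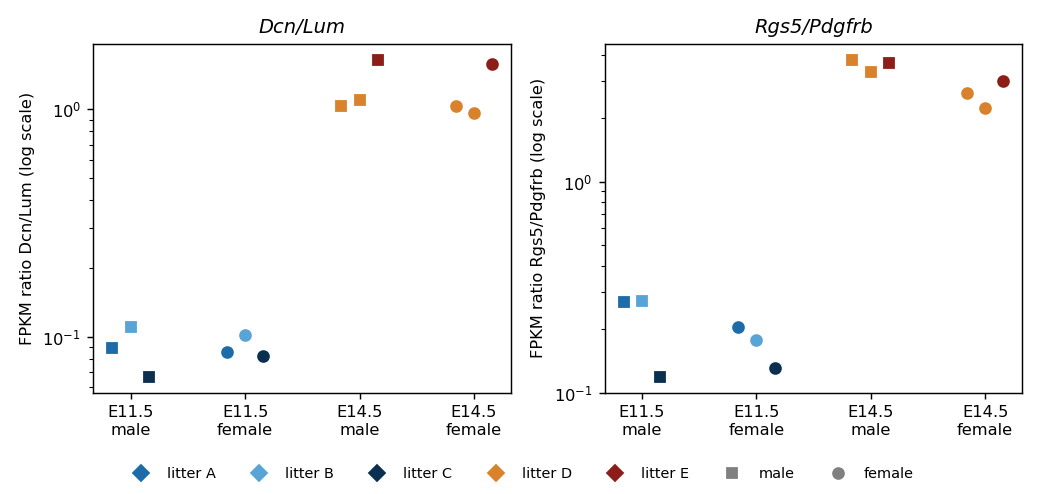
Ratio of Dcn to Lum (left) and of Rgs5 to Pdgfrb (right) in FPKM on log axes, 1 point per library, by age and sex, with litters in colour. The E11.5 ratios of Dcn to Lum reach 0.110 and the E14.5 ratios start at 0.967, and those of Rgs5 to Pdgfrb reach 0.270 and start at 2.24.

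The direction of the 9 genes was then set beside lists of related genes, counted in the same fit. Of 24 other meningeal and mesenchymal fibroblast genes, all tested, 20 fell and 3 rose with age, with a median log2 fold change of −1.04. Col3a1, a fibrillar collagen chain, fell by 1.04 (SE 0.05, edgeR adjusted p = 3.48e-11) and Msx1, a homeodomain factor of neural crest mesenchyme, by 1.89 (SE 0.09, edgeR adjusted p = 9.757e-11) on the log2 scale. The 3 that rose, named after their values were seen, were Aldh1a2, the retinoic acid synthesising enzyme of the meninges (2.62), Postn, the matrix protein periostin (2.01), and Ogn, a proteoglycan related to Lum and Dcn (0.89). Summed over the list, the level was 520 to 555 FPKM in the E11.5 libraries and 187 to 208 FPKM in the E14.5 libraries. Much of this fall was Crabp2, named after its values were seen, with means of 213 FPKM at E11.5 and 19.2 FPKM at E14.5. Col3a1 added to it, with means of 96.6 and 45.3 FPKM, so the sum stands mainly for its most abundant genes. Like the 9 genes, the list thus held a majority that fell, against 19.0% of all genes tested called lower. The 3 of 24 that rose were a smaller share than the 24.4% of all genes called higher. Since the 9 genes and the lists were chosen with earlier results of these data known, this likeness is a description only.

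Pericyte and smooth muscle genes were divided. Of the 17 listed, 15 were tested, 7 rose and 3 fell, with a median log2 fold change of 0.35. Over all genes tested, 24.4% were called higher and 19.0% lower, so the share that fell is near the background. Those that rose were Cspg4, Kcnj8, Abcc9, Anpep, Vtn, Ndufa4l2 and Myh11, of which Kcnj8 and Abcc9 encode the subunits of a potassium channel typical of brain pericytes. Myh11 and Ndufa4l2 were measured thinly, with 5 to 10 and 20 to 37 counts per library at E11.5. The 3 that fell were Tagln and Myl9, which encode contractile proteins, and Notch3, a Notch receptor of mural cells. The study also lists Notch3 among its genes for negative regulation of Notch signalling in the telencephalon, and its bulk level cannot be assigned to 1 cell type. Notch3 had a log2 fold change of −1.34 (SE 0.05, edgeR adjusted p = 2.31e-11) and Myl9 of −1.01 (SE 0.06, edgeR adjusted p = 6.591e-10). In spite of the positive median, the summed level of the list was 85.4 to 104 FPKM at E11.5 and 70.9 to 77.0 FPKM at E14.5. Notch3, with means of 23.4 and 9.08 FPKM at the 2 ages, and Myl9, with 20.7 and 9.94 FPKM, carried this fall. Vtn went the other way, with 11.7 and 18.9 FPKM, so the sum stands mainly for its most abundant genes. The rise of Rgs5 was larger than that of any of the 7, of which Abcc9 (1.26) rose most, whereas Pdgfrb moved with the 3 that fell.

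Among the small leucine-rich proteoglycans, 7 of 10 were tested, and 4 rose and 1 fell with age. The background here and for the PDGF family below was 24.4% of all genes tested called higher and 19.0% called lower. Lum was the only one called lower. Dcn, Prelp (1.58), Fmod (1.36) and Ogn (0.89) were called higher on the log2 scale, and Aspn, Kera and Omd did not reach the count minimum. In the PDGF family, all 6 genes were tested, and 1 rose and 3 fell. The ligand gene Pdgfa rose by 1.12 (SE 0.11, edgeR adjusted p = 2.702e-07), while the receptor genes Pdgfrb and Pdgfra (−0.76) and the ligand gene Pdgfd (−1.15) fell. Pdgfb, whose product recruits pericytes, was not called.

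**Figure D4:**
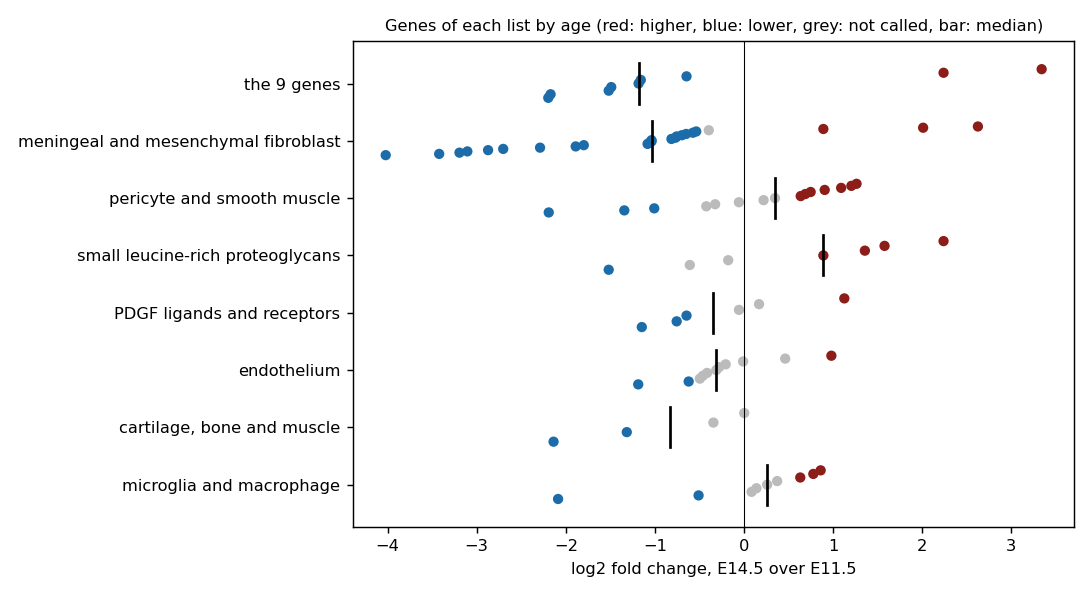
Fitted log2 fold change of E14.5 over E11.5 (horizontal axis) for the tested genes of 8 lists, 1 point per gene, red where called higher, blue where called lower and grey where not called, with black bars at list medians. The 9 genes (median −1.18) and the fibroblast list (−1.04) lie mostly to the left, and the pericyte list (0.35) is divided.

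Markers of other tissues were counted because tissues around and within the telencephalon other than meninges and pericytes can express some of the 9 genes. The counts below stand against 24.4% of all genes tested called higher and 19.0% called lower. For endothelium, all 11 genes were tested, 1 rose and 2 fell, near the background share for falls, with a median of −0.31. Emcn, an endothelial sialomucin, fell by 1.19 and Slc2a1, the glucose transporter of brain endothelium, by 0.62 on the log2 scale. The 1 that rose, named after its values were seen, was Cldn5 (0.98), with means of 9.10 FPKM at E11.5 and 17.3 FPKM at E14.5. The other genes of the list were not called. The summed level was 130 to 154 FPKM at E11.5 and 105 to 118 FPKM at E14.5. Of 11 genes of cartilage, bone and muscle, 4 were tested and 2 fell, Tnnt1 (−2.14) and Col2a1 (−1.32), while Myog and Myf5 were at 0 counts in every library. The summed level of this list was 34.7 to 44.0 FPKM at E11.5 and 10.9 to 21.9 FPKM at E14.5, nearly all of it from Col2a1, whose mean was 38.3 FPKM at E11.5 and 15.2 FPKM at E14.5, so the sum stands for that 1 gene rather than for the tissues. Among surface epithelium genes, 5 of 8 were tested, 1 rose and 2 fell (Epcam −2.34, Grhl3 −2.27), and their sum was 5.55 to 7.12 FPKM at E11.5 and 2.93 to 5.16 FPKM at E14.5. The sums of these 3 lists were thus lower in every E14.5 library, the direction of the 7 genes that fell. Much of the endothelial fall was Slc2a1, with means of 53.9 FPKM at E11.5 and 33.9 FPKM at E14.5. Much of the epithelial fall was Epcam, with means of 2.61 and 0.492 FPKM. These sums therefore do not stand for their tissues, and the part of the lists in the result was not tested.

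The remaining lists showed the following, against the same background of 24.4% of all genes tested called higher and 19.0% called lower. Of 9 erythroid genes, 8 were tested, 6 fell and 1 rose, with Hbb-bh1, an embryonic globin, at −8.45, and the sum was 6428 to 11520 FPKM at E11.5 and 1222 to 1821 FPKM at E14.5. Microglia and macrophage genes, all 9 tested, were mixed with 3 that rose, Csf1r (0.63) among them, and 2 that fell, Pf4 (−2.09) among them, and their sum was 29.4 to 34.4 FPKM at E11.5 and 22.5 to 32.8 FPKM at E14.5. Of 8 eye and retina genes, 2 were tested, Dct (0.88) and Six6 (−1.30), and the lens gene Cryaa was at 0 counts in every library, with sums of 2.89 to 4.45 FPKM at E11.5 and 4.77 to 6.58 FPKM at E14.5. Among 7 diencephalon genes, 5 were tested, 1 rose and 2 fell (Tcf7l2 −1.20, Irx3 −1.44), Nkx2-4 was at 0 counts throughout, and the sum was 14.6 to 18.1 FPKM at E11.5 and 9.27 to 13.6 FPKM at E14.5. Choroid plexus genes rose in 5 of 6, with Kcne2 at 9.0, from 0 to 5 counts per library at E11.5, and only Otx2 falling (−1.48), and their sum was 23.0 to 26.9 FPKM at E11.5 and 148 to 428 FPKM at E14.5. Telencephalic neural genes, all 12 tested, rose in 7 and fell in 2, with Tubb3 at 1.01 and Eomes at 0.97, and summed to 628 to 746 FPKM at E11.5 and 1184 to 1498 FPKM at E14.5. The sum of the neural markers was thus high in every library, but much of it was Tubb3, with means of 361 FPKM at E11.5 and 704 FPKM at E14.5. Single markers could be low, such as Neurod6 at 1.26 to 3.55 FPKM at E11.5. The choroid plexus and neural lists moved in the direction of Dcn and Rgs5, and their part in that rise was not tested.

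Rgs5 and Dcn, the genes that rose, were also the most variable of the 9 between embryos of a group. Their biological coefficients of variation, the spread beyond counting error in the fit, were 21.9% and 18.8%, against 6.52% to 12.4% for the other 7 genes and a median of 6.53% over all genes. The lowest values at E11.5 and the highest at E14.5, where there were only 2 litters, came from the same litter for both genes. The highest values at E11.5 did not, with Rgs5 at 2.48 FPKM in litter A and Dcn at 5.585 FPKM in litter B. At E11.5 the 2 embryos of litter C had the lowest Rgs5 of the age (1.04 and 1.13 FPKM, mean 1.09, against litter means of 2.06 in A and 1.91 in B) and the lowest Dcn (2.96 and 3.47 FPKM). At E14.5 the litter E embryo was the highest of its sex for both genes, with a mean Dcn of 23.7 FPKM in litter E and 17.3 FPKM in litter D. The summed choroid plexus level was also higher in litter E (428 and 337 FPKM) than in the 4 embryos of litter D (148 to 272 FPKM). Most of this sum is Ttr, the transthyretin gene, with a mean of 247 FPKM at E14.5, and its part in the litter difference was not tested. With counts summed per litter, leaving 3 against 2 samples, the 9 genes kept their direction and their calls for age.

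At E11.5 no sex difference was called in any of the 9 genes. With edgeR, 0 of 9 genes were called in either direction, 0 had an unadjusted p under 0.05, and DESeq2 and limma also called 0. The background was as low, with 0.104% of all genes tested called higher and 0.270% called lower in females. The smallest edgeR adjusted p was 0.34, for Foxd1 (log2 fold change of female over male −0.26, 95% interval −0.56 to 0.04). The intervals were narrow for Lum (−0.24 to 0.12) and Prrx1 (−0.12 to 0.25) and wide for Rgs5 (−1.10 to 0.21) and Dcn (−0.64 to 0.51). Those of Foxd1 and Alx4 (−0.56 to 0.04) also passed the minimum on the lower side. A difference of the size of the minimum in Rgs5, Dcn, Foxd1 or Alx4 could therefore not be detected or set aside. With litter as a block, Rgs5 had a log2 fold change of −0.43 (SE 0.11, edgeR adjusted p = 0.01201), which passed the adjusted p but not the minimum of 0.5, and the male exceeded the female in litters A and B but not in C.

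At E14.5, 2 of the 9 genes were lower in females and 0 were higher, in a background of 5.62% of all genes called lower and 5.98% called higher. Foxd1 was lower in females, with a log2 fold change of −0.58 (SE 0.17, edgeR adjusted p = 0.01193). Its female libraries (1.19 to 1.5 FPKM) did not overlap with the males (1.62 to 2.34 FPKM), but the gap was small, and the call was lost without male replicate 1 (−0.48, edgeR adjusted p = 0.05542) or without female replicate 2 (−0.47, edgeR adjusted p = 0.05617). Dcn was lower in females, with a log2 fold change of −0.55 (SE 0.21, edgeR adjusted p = 0.04861), just inside the threshold, and the female of litter E (20.1 FPKM) exceeded male replicate 2 (19.2 FPKM). Its call was lost without any one of male replicates 1 and 3 and female replicates 1 and 2 of E14.5 (edgeR adjusted p from 0.07602 to 0.1733) and in 14 of 26 alternative settings in all. Within each litter the males were higher, since in litter D both males exceeded both females and in litter E the male measured 27.4 FPKM against 20.1 FPKM, and with litter as a block the adjusted p of Dcn was 7.176e-08 at the same log2 fold change of −0.55.

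Lum also differed between the sexes at E14.5, with every male (16.6 to 21.1 FPKM) above every female (12.7 to 14.6 FPKM). Its log2 fold change of −0.47 (SE 0.09, edgeR adjusted p = 0.0008382) was under the minimum of 0.5, so it was not among the calls. The others did not pass the test without a block. Pdgfrb (95% interval −0.08 to 0.27), Prrx1 (−0.31 to 0.10) and Foxc1 (−0.47 to 0.03) had intervals inside the minimum, while those of Rgs5 (−0.81 to 0.11), Twist1 (−0.42 to 0.58) and Alx4 (−0.50 to 0.26) reached or passed it. With litter as a block, Rgs5 (−0.35, edgeR adjusted p = 3.018e-05) and Foxc1 (−0.22, edgeR adjusted p = 0.0164) passed the adjusted p as Lum did, again under the minimum of 0.5, and for both genes every male exceeded every female of its litter. With a correction for GC content and transcript length, which lowered the calls over all genes to 158 higher and 189 lower, Foxd1 remained lower (−0.73, edgeR adjusted p = 0.007512), whereas Dcn (−0.29, edgeR adjusted p = 0.3754) and Lum (−0.18, edgeR adjusted p = 0.1141) no longer passed. Under the same correction Foxc1 had a log2 fold change of −0.46 and passed the adjusted p (edgeR adjusted p = 0.0187) but not the minimum, and the estimate of Prrx1 moved from −0.10 to 0.29 (edgeR adjusted p = 0.06886). Telencephalic neural markers summed to 1184 to 1231 FPKM in E14.5 males and 1428 to 1498 FPKM in E14.5 females. Much of that sum was Tubb3, with a mean of 704 FPKM at E14.5. Over the 12 neural genes, female over male ran from −0.24 (Neurod6) to 0.73 (Emx1) on the log2 scale, with a median of 0.23. Col2a1 measured 10.2 to 12.9 FPKM in E14.5 males and 14.7 to 21.3 FPKM in E14.5 females. The part of these shifts in the sex differences was not tested.

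**Figure D5:**
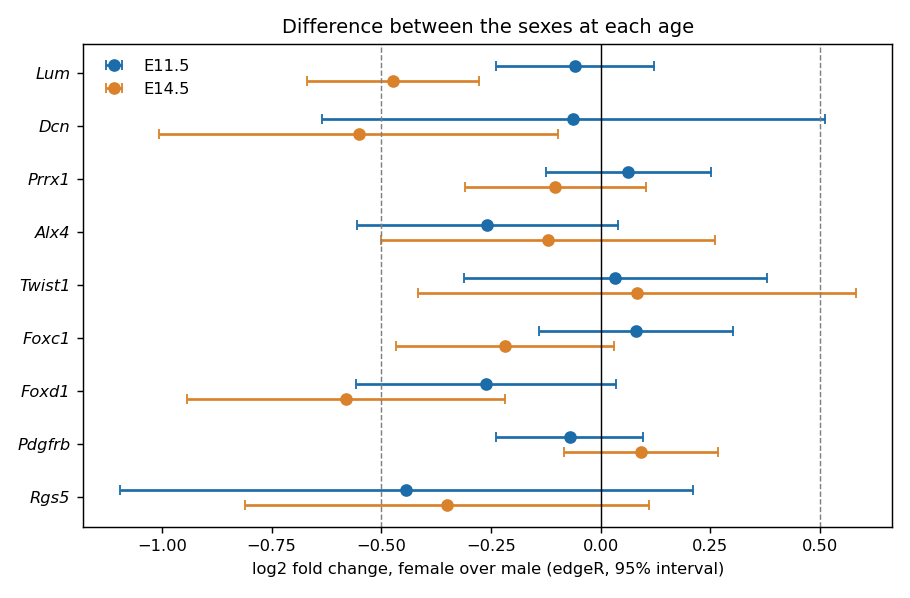
Fitted log2 fold change of female over male (horizontal axis) with 95% intervals from edgeR, at E11.5 (blue) and E14.5 (orange), and dashed lines at the minimum of 0.5. At E14.5 the intervals of Foxd1 (−0.58), Dcn (−0.55) and Lum (−0.47) lie below 0, and at E11.5 the intervals of all 9 genes include 0.

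The related lists held sex differences in both directions at E14.5. In the fibroblast list 4 of 24 genes were lower in females and 0 were higher, against 5.62% and 5.98% of all genes tested. Among the 4 were Pdgfra (−0.60, edgeR adjusted p = 0.0007815), Postn (−0.66, edgeR adjusted p = 0.014) and Thbs2 (−1.07, edgeR adjusted p = 0.007137). In the pericyte list Ndufa4l2 (0.62) and Notch3 (0.62) were higher and Myh11 (−0.99) was lower in females on the log2 scale. Of these, Ndufa4l2 and Myh11 were measured thinly, with 25 to 66 and 10 to 28 counts per library at E14.5. Within the PDGF family Pdgfa was higher in females (0.66, edgeR adjusted p = 0.002081), and Pdgfra and Pdgfd (−0.91, edgeR adjusted p = 0.004735) were lower. By the adjusted p alone, 6 genes of the fibroblast list were lower and 3 were higher in females. The share of all genes under this looser rule was not counted, so the shares above are no background for it. The 3 that were higher were Msx1 (0.46, edgeR adjusted p = 0.01276) and, named after their values were seen, Fbln1 (0.35, edgeR adjusted p = 0.006177) and Zic1 (0.30, edgeR adjusted p = 0.03162). The medians of the 9 genes (−0.22) and of the fibroblast list (−0.14) were small.

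The change of the sex difference with age was tested as an interaction, for which 20.6% of all genes were called higher and 18.5% lower at an adjusted p under 0.05. Of the 9 genes, only Lum passed, with a change of −0.41 on the log2 scale (SE 0.12, edgeR adjusted p = 0.01682), from −0.06 at E11.5 to −0.47 at E14.5. Foxd1 (−0.32, edgeR adjusted p = 0.2731) and Dcn (−0.49, edgeR adjusted p = 0.2766) did not pass, so their sex difference was not shown to differ between the ages. When the replicate numbers were entered as a block within each age, 3 genes passed, namely Lum (−0.41, edgeR adjusted p = 0.001036), Dcn (−0.50, edgeR adjusted p = 0.0006506) and Foxc1 (−0.29, edgeR adjusted p = 0.01379). The same 3 passed with litter as the block (edgeR adjusted p = 0.0005474 for Lum, 0.0007583 for Dcn and 0.01417 for Foxc1). With the correction for GC content and length, Lum no longer passed (−0.05, edgeR adjusted p = 0.8318) and Foxc1 did (−0.66, edgeR adjusted p = 0.0256).

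Finally, the genes most alike in pattern were sought for each of the 9, as those with the smallest mean absolute difference in centred log2 CPM over the 12 libraries. Twist1 and Alx4 were near each other, with Alx4 first for Twist1 and Twist1 second for Alx4 (0.14). Next for Twist1 came Tagln and Tmem119, and Alx4 had Col9a1 first (0.12) and Dkk2 after Twist1. Lum was the nearest gene to Foxd1 (0.16), followed by Cped1 and Gcnt1, whereas the nearest to Lum were Lrig3 (0.09), S1pr3 and Gulp1. For Prrx1 they were Tmem123, Lactb2 and Phldb2, for Foxc1 Cd38 and Lgr4, and for Pdgfrb Fndc3b, Jag1 and Tspan4, all with differences under 0.10. The genes that rose were not each other's nearest. Rgs5 was closest to Slitrk3 (0.13), Epha5 and Myt1l, and near Dcn were Luzp2 (0.13) and Ptprr (0.14). Since each of the 9 genes differed between the ages, this measure mainly picks genes with a like age difference.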

How the data were processed

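Poly(A) RNA of the telencephalon of 12 single embryos was sequenced (TruSeq Stranded mRNA, paired ends). Per the labels and the study's methods, the authors aligned reads to GRCm38 with STAR 2.6.0c and quantified genes with Genedata Profiler. The deposited expected counts (82.7% whole numbers) were rounded for testing, and the FPKM values, which the authors normalised by transcript length and library size, were used for levels. Use of strand in the counting is not given in the sources used here.

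The counts were tested in R 4.3.3 with edgeR 4.0.16 (TMM, robust quasi-likelihood test, 4 groups of age and sex in 1 fit, 8 residual degrees of freedom) on the genes whose mean count reached 16 in 1 or more groups, with Benjamini-Hochberg adjustment over all 14454 genes. Calls required an adjusted p below 0.05 together with a change of more than 0.5 on the log2 scale, or the adjusted p alone for the interaction. Each replicate was 1 embryo. The study's embryo table places the male and female of each number in the same litter, but at E14.5 numbers 1 and 2 share a litter, so within that litter the numbers pair nothing. Male and female deviations of the same number correlated (0.067, 0.132 and 0.225 for E11.5, 0.214, 0.271 and 0.56 for E14.5), and those of male 1 with female 2 and of male 2 with female 1, in the shared E14.5 litter, did so at 0.268 and 0.168. Alternatives were other scalings, DESeq2 1.42.0, limma 3.58.1 on log2(FPKM + 0.1) and log2(FPKM + 1), count minimums, each library left out, blocks for replicate number or litter, and a correction for GC content and length. Counts of the other lists under these settings, and litter as a block in the interaction, were added after seeing the data. The script was tested on simulated data. The members and the lists were chosen with earlier results of these data known. All 9 genes were named, with the 2 genes of smallest adjusted p for age among those called in each other list, genes of the fibroblast, pericyte, proteoglycan and PDGF lists called for sex, and the 3 nearest genes of each member. Other genes were named after their values were seen. Some genes that this rule takes in are not reported here.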

Additional observations from a re-analysis of the deposited data

Results flagged for a closer look

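The sex difference of Lum changed with age. Female over male was −0.06 on the log2 scale at E11.5 and −0.47 at E14.5, a change of −0.41 (SE 0.12, edgeR interaction test, adjusted p = 0.01682), and all 3 males exceeded all 3 females at E14.5. The change was −0.05 (edgeR adjusted p = 0.8318) after correction for GC content and length.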

How the results depend on the processing

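All age calls of the 9 genes kept their direction and their side of the threshold in the 28 alternatives, with log2 fold changes from 2.71 to 3.44 for Rgs5, from 1.95 to 2.49 for Dcn and from −1.01 to −0.56 for Pdgfrb, and no E11.5 sex call appeared in 26. At E14.5, the 2 genes called lower in females became 1 with DESeq2, limma on log2(FPKM + 0.1), no count minimum, the GC content and length correction, or that correction with the replicate block, 0 with limma on log2(FPKM + 1), and 0 to 3 when a library was left out. The number was 3 without litter E and without E14.5 male 2, where Lum joined Foxd1 and Dcn. Leaving out E11.5 male 1 or any E11.5 female also ended the call of Dcn (edgeR adjusted p from 0.05579 to 0.06267), although the E14.5 libraries were the same. Lum passed the minimum of 0.5 without E14.5 male 2, male 3 or female 2, or without litter E (−0.51). The 1 gene called lower in the interaction became 0 with either limma fit, 3 with the replicate block or with litter as the block, 2 with the correction and replicate block (then also 1 higher, Rgs5, 0.42), and 1 to 2 when a library was left out, Prrx1 (−0.29, edgeR adjusted p = 0.04866) joining without E14.5 female 2. The replicate block and litter block changed no other call made with the minimum. The causes were not tested. In the fibroblast list the counts for age were 3 higher and 19 lower without litter E and 3 and 21 with the correction, and in the pericyte list 7 and 3, and 7 and 4. Depth limits Twist1 at E14.5, and 3 embryos per group limit every sex comparison.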
